A study of Mus musculus with 6 samples.

Results

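The genes described here encode the repressor machinery that Bcl6 works with: 35 genes for corepressors, histone deacetylases and Polycomb subunits. They were chosen by name, from proteins known to bind or act with Bcl6, at a time when earlier results of these data were known. Of the 35, 14 had at least 1 Bcl6 peak in the authors' gene list (40.0%, exact 95% binomial interval 23.9 to 57.9%), where 20.1% of the 21887 protein-coding genes were listed with a peak. The other 21 members had none. The 14 genes held 20 of the 3878 peaks of the screen.

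Bcl6 is a zinc finger repressor with an amino-terminal BTB domain. The BTB domain docks the SMRT/NCoR and BCOR corepressors, a middle repression domain recruits the NuRD complex through Mta3, and CtBP and class II deacetylases bind elsewhere on the protein. In the developing cortex Bcl6 promotes the switch from progenitor to neuron, and the deacetylase Sirt1 is known as its partner there. The question addressed here is where Bcl6 itself was bound near the genes for these partners.

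The data came from mouse ES cells of the A2 lox.Cre Bcl6 line, which carry a tetracycline-inducible Bcl6 transgene. The cells were differentiated into cortical progenitors, with the Hedgehog pathway inhibitor cyclopamine in the medium for part of that time, and at day 12 of differentiation the transgene was switched on with doxycycline, at 1 µg/ml for 24 h. Chromatin immunoprecipitation and sequencing (ChIP-seq) gave 3 libraries with an antibody to Bcl6 and 3 of input DNA, all from induced cells of this 1 line. The libraries of each group were pooled before peaks were called, with 11718276 ChIP and 5048582 input tags kept, so all peak values are the authors' own, 1 per peak, and carry no replicate error. No library of uninduced cells was used here, so endogenous and induced Bcl6 cannot be told apart, and with no expression data the cell type could not be checked against its markers. A peak's fold enrichment is ChIP signal over the local input background, and its score is the base 10 logarithm of the called p-value times −10, so the cutoff of 1e-05 is a score of 50. Intervals on tag counts are exact 95% Poisson intervals, which cover counting error only.

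Peaks lay over the RefSeq promoters of 7 members, named in the next paragraph. The sequences of 4 of them, Ncor1, Tbl1xr1, Ezh2 and Sirt1, are shown as examples. Each line gives the 250 bases before the transcription start site (TSS), 5′ to 3′ on the gene's strand, from RefSeq on GRCm38.p6, the same build as mm10. Capitals mark each CG dinucleotide. The Ncor1 stretch is chr11:62457333-62457582 (minus strand), that of Tbl1xr1 is chr3:22076402-22076651 (plus), that of Ezh2 is chr6:47595031-47595280 (minus) and that of Sirt1 is chr10:63339036-63339285 (minus).
Ncor1: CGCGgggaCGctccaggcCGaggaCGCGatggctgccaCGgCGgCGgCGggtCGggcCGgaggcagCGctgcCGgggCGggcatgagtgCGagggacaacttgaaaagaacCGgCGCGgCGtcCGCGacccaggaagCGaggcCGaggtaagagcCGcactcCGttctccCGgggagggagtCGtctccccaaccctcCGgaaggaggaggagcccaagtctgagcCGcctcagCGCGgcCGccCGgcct
Tbl1xr1: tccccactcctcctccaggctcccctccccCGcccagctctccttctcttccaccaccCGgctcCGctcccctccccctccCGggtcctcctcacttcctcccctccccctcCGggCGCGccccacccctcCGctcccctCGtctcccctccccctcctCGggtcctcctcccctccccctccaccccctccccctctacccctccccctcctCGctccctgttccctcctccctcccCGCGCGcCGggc
Ezh2: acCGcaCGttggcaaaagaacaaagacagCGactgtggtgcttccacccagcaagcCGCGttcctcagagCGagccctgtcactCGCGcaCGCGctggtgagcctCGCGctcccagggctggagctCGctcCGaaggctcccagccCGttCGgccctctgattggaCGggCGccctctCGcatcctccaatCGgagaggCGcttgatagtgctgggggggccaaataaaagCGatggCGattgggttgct
Sirt1: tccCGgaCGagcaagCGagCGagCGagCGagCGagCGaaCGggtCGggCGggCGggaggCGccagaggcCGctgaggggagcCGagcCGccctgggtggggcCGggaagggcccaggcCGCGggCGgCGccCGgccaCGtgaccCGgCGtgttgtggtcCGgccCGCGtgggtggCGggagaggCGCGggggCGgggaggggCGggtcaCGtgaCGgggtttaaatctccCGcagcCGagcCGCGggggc
All 4 stretches were rich in G and C, from 63.6% in Ezh2 to 79.2% in Sirt1. They held 34 CG dinucleotides in Ncor1, 15 in Tbl1xr1, 23 in Ezh2 and 39 in Sirt1. The Tbl1xr1 stretch had long runs of C and T and the fewest CG of the 4. The peak summit lay 141 bases upstream of the Ncor1 TSS and 148 bases upstream of that of Ezh2, inside the stretches shown. The summit lay 334 bases upstream of the TSS for Tbl1xr1 and 565 bases downstream for Sirt1, outside them.

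Promoter windows of 300 bases, from 250 before to 50 after the TSS, were available for 31 of the 35 members. A window of each of 7 members lay wholly inside one of that member's peaks: Ncor1, Tbl1x, Tbl1xr1, Sirt1, Rcor2, Sin3a and Ezh2. Median GC content was 72.3% in these 7 windows, 65.7% in the 2726 windows of any gene inside a peak and 52.7% in all 32851 windows. The median CG count was 31 in the 7, 26 in the windows inside a peak and 7 in all windows. The 3 motif forms searched on both strands were TTCNNNGAA, TTCCTNGAA and TTCCTAGAA, the last being the Bcl6 consensus and contained in both others. None of the 7 windows held any of them. TTCNNNGAA was in 8.30% of all windows and in 6.20% of those inside a peak, and TTCCTAGAA was in 0.411% and 0.330%. At such rates 7 windows are too few to tell whether member promoters lack the motif. The peak summits of Tbl1x, Tbl1xr1, Sirt1, Rcor2 and Sin3a lay outside their windows, 334 to 790 bases from the TSS. The bases at those summits were not searched. No sequence was read for the peaks away from promoters.

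A second RefSeq start of Ncor1 lies 18.8 kb inside the gene from the first. Its window holds TTCCTAGAA starting 5 bases after that TSS, shown here at chr11:62438492-62438520 (minus strand) with the motif in capitals.
Ncor1 internal start: tgtaggttgcTTCCTAGAAacatggttgt
The nearest peak to this stretch was 17.9 kb away and was the one over the first Ncor1 promoter. The Ncor1 promoter window inside the peak thus lacked these letters, and the Ncor1 window with the letters lay in no peak. The rest of the Ncor1 peak was not searched. Windows with TTCNNNGAA were also found for Bcor and Hdac7, none of them inside a peak.

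The SMRT/NCoR complex, a scaffold with its deacetylase Hdac3 and the TBL1 proteins, had a peak at 4 of its 5 genes in the list. Of these, Ncor1, Tbl1x and Tbl1xr1 had the peak centre within 1 kb of the listed TSS. Over all 35 members, 7 (20.0%) had such a promoter peak, against 10.8% of protein-coding genes. The exact 95% interval of the members' share, 8.44 to 36.9%, takes in the 10.8%. Ncor1, the scaffold that the BTB domain binds, had a wide peak on chromosome 11 from 62456451 to 62459541. It held 125 tags over 3091 bp (95% interval 104 to 149), or 40.4 tags per kb, with a fold enrichment of 17.7 and a score of 108. By score it stood above 79.3% of all peaks, but by fold above 29.8% only. The same peak was listed for Pigl, a glycolipid anchor enzyme gene whose TSS lay 464 bp from the centre, on the far side from that of Ncor1 at 664 bp.

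Tbl1xr1, an exchange factor of the complex, had the promoter peak with the highest fold and score of the members, on chromosome 3 from 22074990 to 22077395. It reached 42.7-fold with 123 tags (102 to 147), a density of 51.1 tags per kb, below the 56.3 of the Sin3a promoter peak, and its centre lay 460 bp upstream of the TSS. By fold it ranked 201 of the 3878 peaks. Its X-linked paralogue Tbl1x had a smaller promoter peak of 24.8-fold and 38 tags (26.9 to 52.2), or 33.8 tags per kb, 291 bp upstream of the listed TSS. The counting intervals of the densities, 42.5 to 61.0 tags per kb for Tbl1xr1 and 23.9 to 46.3 for Tbl1x, overlap. Gps2, a small subunit that bridges the scaffold and the TBL1 proteins, had a peak of 20.3-fold with 50 tags, centred inside its gene body 2358 bp downstream of the TSS. That peak was also listed for Eif5a, a translation factor gene next to it. Hdac3 had no listed peak, and the nearest lay 76.3 kb from the gene.

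**Figure D1:**
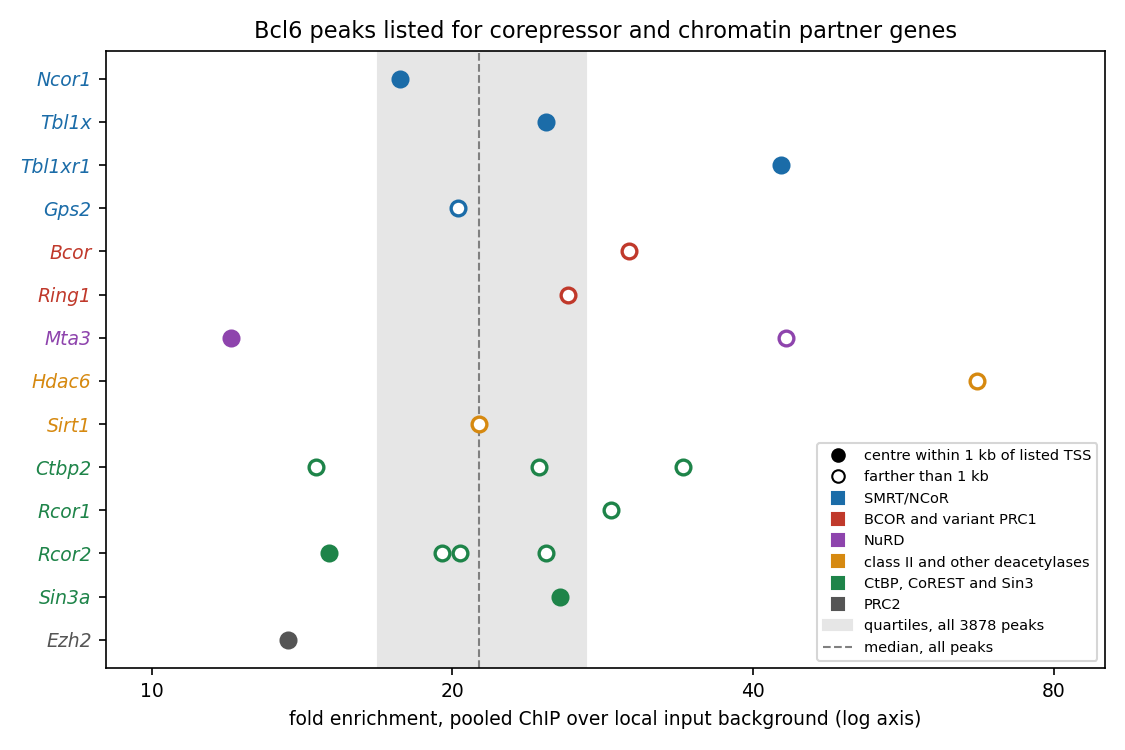
Fold enrichment (log axis) of each of the 20 peaks listed for the 14 member genes, by gene and coloured by complex, filled where the peak centre lay within 1 kb of the listed TSS. The grey band and dashed line give the quartiles (16.8 and 27.2) and median (21.3) of all 3878 peaks; Hdac6 (67.0), Mta3 (43.1) and Tbl1xr1 (42.7) lie farthest to the right and the promoter peaks of Mta3 (12.0) and Ezh2 (13.7) farthest to the left.

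BCOR and the variant Polycomb complex PRC1, which it forms with Kdm2b, Pcgf1 and a RING ubiquitin ligase, had a listed peak at 2 of the 7 members, neither within 1 kb of that member's TSS. The peak listed for Bcor, the corepressor that shares the BTB docking groove with SMRT/NCoR, was narrow, at 942 bp, with 39 tags (27.7 to 53.3) and 30.1-fold. It lay on the X chromosome from 11956706 to 11957647, 123 kb downstream of the listed TSS. That TSS lies inside the gene, and by the RefSeq gene the peak was 79.6 kb beyond the 3′ end of Bcor and inside no annotated gene. The peak listed for Ring1, a RING ubiquitin ligase, had 26.1-fold and 90 tags (72.4 to 111) on chromosome 17 from 34027222 to 34028825. It was centred 33 bp from the TSS of H2-Ke6, a dehydrogenase gene, and 3343 bp upstream of Ring1. Bcorl1, Kdm2b, Pcgf1, Rnf2 and Cbx8 had no listed peak.

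NuRD joins chromatin remodelling by Chd4 to deacetylation by Hdac1 and Hdac2, with an MTA protein as scaffold. Of the 6 NuRD genes among the 35 members only Mta3, the subunit known to link NuRD to Bcl6 in B cells, had a listed peak. Mta3 had 2, a distal and a promoter peak. NuRD subunit genes outside the 35 were listed too: Mbd2, Mbd3 and Gatad2a, named here after their values were seen, had a peak 174, 487 and 64 bp from the TSS. The distal Mta3 peak lay 28.6 kb upstream on chromosome 17 from 83677230 to 83677976, with 43.1-fold in 747 bp and 43 tags (31.1 to 57.9). The Mta3 promoter peak, centred 140 bp upstream of the TSS from 83705004 to 83707098, held more tags, 73 (57.2 to 91.8), in 2095 bp but had 12.0-fold. By density the distal peak stood at 57.6 tags per kb (41.7 to 77.5) and the promoter peak at 34.8 (27.3 to 43.8), and these intervals overlap. By fold the distal peak stood above 94.9% of all peaks and the promoter peak above 3.46%. The distal peak was also listed for Kcng3, a potassium channel gene 45.7 kb away.

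Among the class II and other deacetylases, 2 of 7 genes had a listed peak. Hdac6, a mainly cytoplasmic deacetylase of tubulin, had the highest fold of all member peaks, 67.0, ranking 58 of the 3878 peaks. The peak, on the X chromosome from 7956318 to 7957127, was 810 bp wide with 54 tags (40.6 to 70.5), and its density of 66.7 tags per kb was also the highest among members. It lay 8833 bp upstream of the Hdac6 TSS and 11.2 kb downstream of the TSS of Gata1, the erythroid transcription factor gene, for which it was listed too. By the RefSeq table its centre was outside both genes and inside the predicted gene Gm39488.

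Sirt1, an NAD-dependent deacetylase, had a peak of 21.3-fold and 70 tags (54.6 to 88.4) on chromosome 10 from 63337964 to 63339464. The authors' list placed it 43.0 kb downstream of a Sirt1 TSS. The RefSeq TSS of Sirt1 is 42.7 kb away from that listed TSS, and the peak centre was 321 bp downstream of it, with the whole promoter window inside the peak. By RefSeq the Sirt1 peak was therefore a promoter peak. Hdac4, Hdac5, Hdac7, Hdac8 and Hdac9 had no listed peak.

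**Figure D2:**
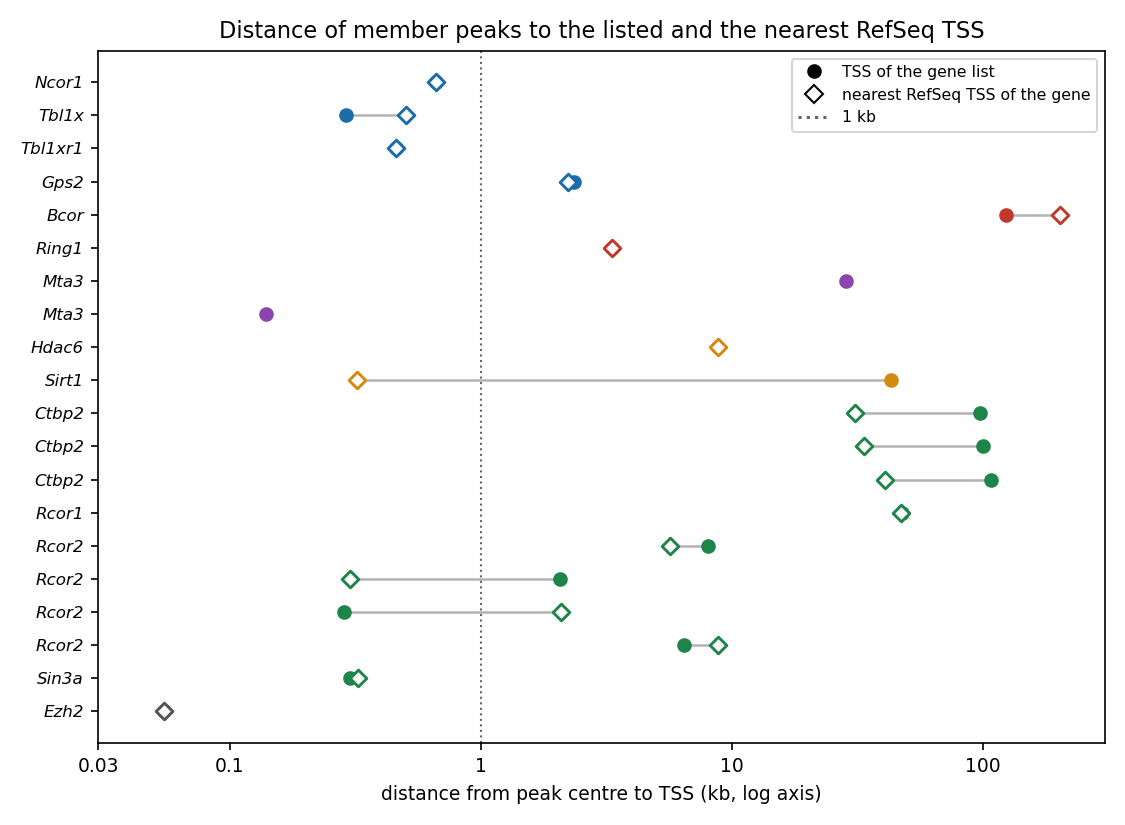
Distance (kb, log axis) from the centre of each member peak to the TSS of the authors' list (circles) and to the nearest RefSeq TSS of the same gene (diamonds), joined by a grey line; Mta3 has circles alone. Sirt1 moved from 43.0 kb to 0.321 kb, and 2 of the Rcor2 peaks exchanged sides of the dotted 1 kb line.

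CtBP, CoREST and Sin3 genes held 9 of the 20 member peaks, at 4 of 8 genes. Over all complexes, 3 of the 14 members with a listed peak had several: Rcor2, Ctbp2 and Mta3. That share, 21.4% (exact 95% interval 4.66 to 50.8%), was close to the 20.4% of all listed genes with several peaks. Rcor2, a CoREST scaffold of neural progenitors that ties the demethylase Kdm1a to deacetylases, had 4 peaks, the most of any member. They spanned 15.5 kb of chromosome 19 from edge to edge, with centres 5672 bp before the RefSeq 5′ end and 301, 2084 and 8806 bp past it. Their folds in that order were 20.4, 19.5, 15.0 and 24.8, with 38, 58, 64 and 40 tags. The second covered the RefSeq TSS and was separated from the third by 26 bp. The third was the 1 within 1 kb of the listed TSS, which lies 2370 bp inside the RefSeq gene. The fourth was centred past the end of Rcor2, inside the neighbouring kinase gene Mark2. Rcor1 had 1 peak of 28.8-fold and 58 tags (44.0 to 75.0), 47.9 kb upstream, which lay nearer to Ankrd9, at 12.9 kb. Rcor3 and Kdm1a had no listed peak.

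Ctbp2, a corepressor that binds short peptide motifs and senses NADH, had 3 peaks on chromosome 7, between 133111977 and 133124430, with the outer centres 9.92 kb apart. Listed 97.7, 100.2 and 108 kb upstream, all 3 were centred inside the RefSeq gene body. The last spanned the 5′ end of the longest RefSeq extent of the gene, with its centre 1161 bp inside, and was the widest member peak, at 3165 bp, with 107 tags (87.7 to 129) and 14.6-fold. The middle peak had the highest fold, 34.0, with 115 tags (94.9 to 138), a score of 170 and 52.1 tags per kb. The innermost peak had 24.4-fold and 61 tags. All 3 Ctbp2 peaks were also listed for Tex36, 479 to 489 kb away. The paralogue Ctbp1 had no listed peak, and the nearest lay 103 kb from it. Sin3a, the scaffold of the Sin3 deacetylase complex, had a promoter peak on chromosome 9 from 57075741 to 57077660 with 25.7-fold, 108 tags (88.6 to 130) and a score of 155. It covered the second of 2 RefSeq starts, 324 bp from the centre. Its paralogue Sin3b had none within 151 kb.

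**Figure D3:**
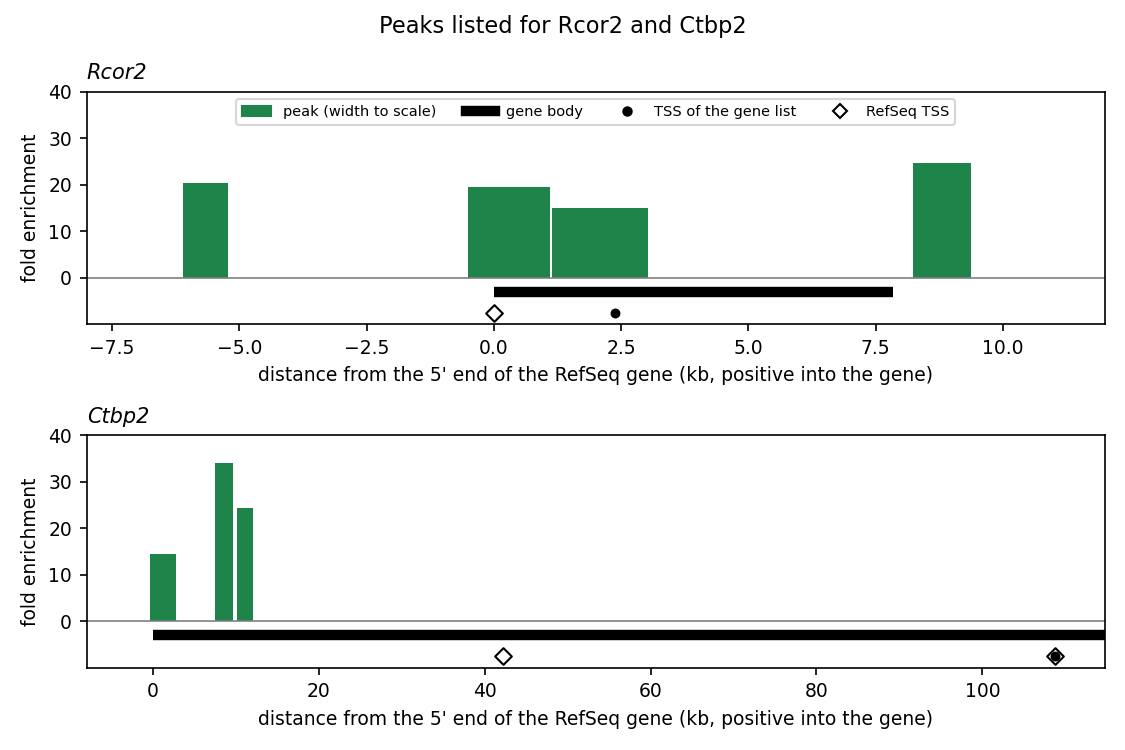
Peaks listed for Rcor2 (top) and Ctbp2 (bottom), drawn to scale as bars of fold enrichment against the distance in kb from the RefSeq 5′ end, with the gene body in black, the listed TSS as a dot and RefSeq TSSs as diamonds. A peak covers the 5′ end of both genes, of 19.5-fold in Rcor2 and 14.6-fold in Ctbp2, and the Ctbp2 body runs on past the right edge.

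Of the PRC2 methyltransferases, Ezh2, the form of dividing cells, had a peak over its TSS on chromosome 6 from 47593902 to 47596048. The centre was 55 bp from the TSS, the closest of all members. The peak held 97 tags (78.7 to 118) over 2147 bp, with 13.7-fold, a fold above 8.74% of all peaks, and a score of 80.6, above 61.0%. Ezh1, the form of resting cells, had no listed peak, and the nearest, of 11.5-fold at Wnk4, lay 33.3 kb away.

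Over all 20 peaks, fold enrichment had a median of 24.6 (exact 95% interval for the median of the 20 peaks 19.5 to 28.8), beside 21.3 over all peaks. The median tag density was 40.9 per kb, beside 40.0. The 7 promoter peaks had a median of 17.7-fold, with a range of 12.0 to 42.7, and the 13 others 24.8-fold, from 14.6 to 67.0. For all peaks the medians were 20.3 within 1 kb of a TSS and 21.9 farther away. Member peaks were classed by the member's own listed TSS, but all peaks by the nearest listed TSS of any gene. The 13 others include the Ring1 peak, at the TSS of H2-Ke6, and the peaks over the RefSeq TSSs of Sirt1 and Rcor2. Of the 7 promoter peaks 4 were over 2 kb wide (Ncor1, Tbl1xr1, Mta3 and Ezh2). The exact 95% interval of that share, 18.4 to 90.1%, takes in the 19.8% of all peaks within 1 kb of a TSS. Of the 20 member peaks 6 were that wide (30.0%, exact 95% interval 11.9 to 54.3%), beside 22.8% of all peaks. With only peaks at most 2 kb wide, 11 of 35 members had a listed peak (31.4%, exact 95% interval 16.9 to 49.3%), against 16.6% of protein-coding genes. Ncor1, Tbl1xr1 and Ezh2 were the 3 that had none left.

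**Figure D4:**
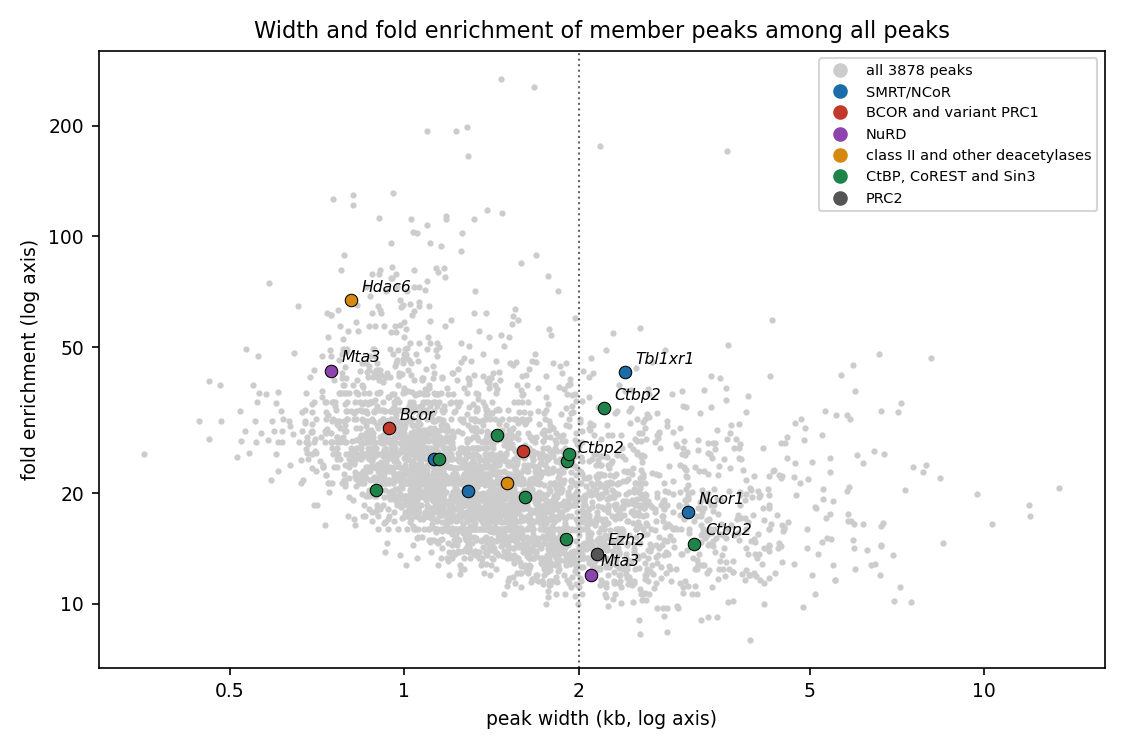
Width (kb) and fold enrichment of the 20 member peaks, coloured by complex, over all 3878 peaks in grey, both on log axes with the 2 kb width as a dotted line. The Hdac6 and distal Mta3 peaks are narrow with high fold, the Ezh2 and promoter Mta3 peaks lie just past 2 kb at the low edge of fold, and Tbl1xr1 and a Ctbp2 peak are wide with folds of 42.7 and 34.0.

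Most member peaks were shared with another gene in the list, 13 of 20 (65.0%, exact 95% interval 40.8 to 84.6%). Of all peaks with a listed gene 49.2% were shared, which lies inside that interval. Some of the sharing was with very distant genes: Tex36, 479 to 489 kb from the Ctbp2 peaks, and Gm4906, 629 kb from the Bcor peak. These shares are not like for like. Member peaks were picked through genes, so a peak listed for several genes had more chances of being picked. Of the 20 distances to the listed TSS, 7 were up to 1 kb, 3 were 1 to 5 kb, 6 were 5 to 50 kb and 4 were over 50 kb. The corresponding shares of all 5801 pairs of a peak and a gene were 41.7, 10.5, 26.7 and 21.2%. Using RefSeq TSSs and any peak, 7 of the 31 members in the promoter table had a peak centre within 1 kb, where 12.0% of the protein-coding genes in that table did. They were the same genes as by the list, except that Sirt1 was gained and Mta3 has no entry in that table.

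The 21 members without a listed peak differed widely in how far the nearest peak lay from the gene body. For these genes no peak assigned to them passed the cutoff at this depth, and weaker binding would not have been detectable. Mta2 was closest: a peak of 17.8-fold and 69 tags began 124 bp past its 3′ end, listed for Tut1 at 499 bp from the TSS of that gene. Hdac1 had 1 of 16.4-fold at 1223 bp, listed for Marcksl1, and Mta1 had 1 of 18.0-fold at 2595 bp past its 3′ end, listed for Crip2. These 3 NuRD genes were the only ones of the 21 with a peak within 5 kb (14.3%), beside 3.85% of all protein-coding genes without a listed peak. No interval was computed for this share, which rests on 3 genes, and the difference was not tested. Rcor3 at 5151 bp and Hdac5 at 5332 bp followed. Of the 21 nearest peaks, 18 lay within 1 kb of the listed TSS of another gene.

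The peak nearest to Chd4 was the wide one near Gapdh, of 19.3-fold and 349 tags, 28.7 kb away. Kdm2b and Pcgf1 had the nearest peak at 19.7 and 20.2 kb. At the other end, 5 genes had none within 1000 kb: Rnf2, Hdac9, Hdac4, Hdac2 and Bcorl1, the last at 8645 kb. That is 23.8% of the 21, beside 20.7% of all protein-coding genes without a listed peak. The median over the 21 was 79.7 kb, beside 234 kb for all protein-coding genes without a listed peak. No interval was computed for these medians, and the difference was not tested.

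**Figure D5:**
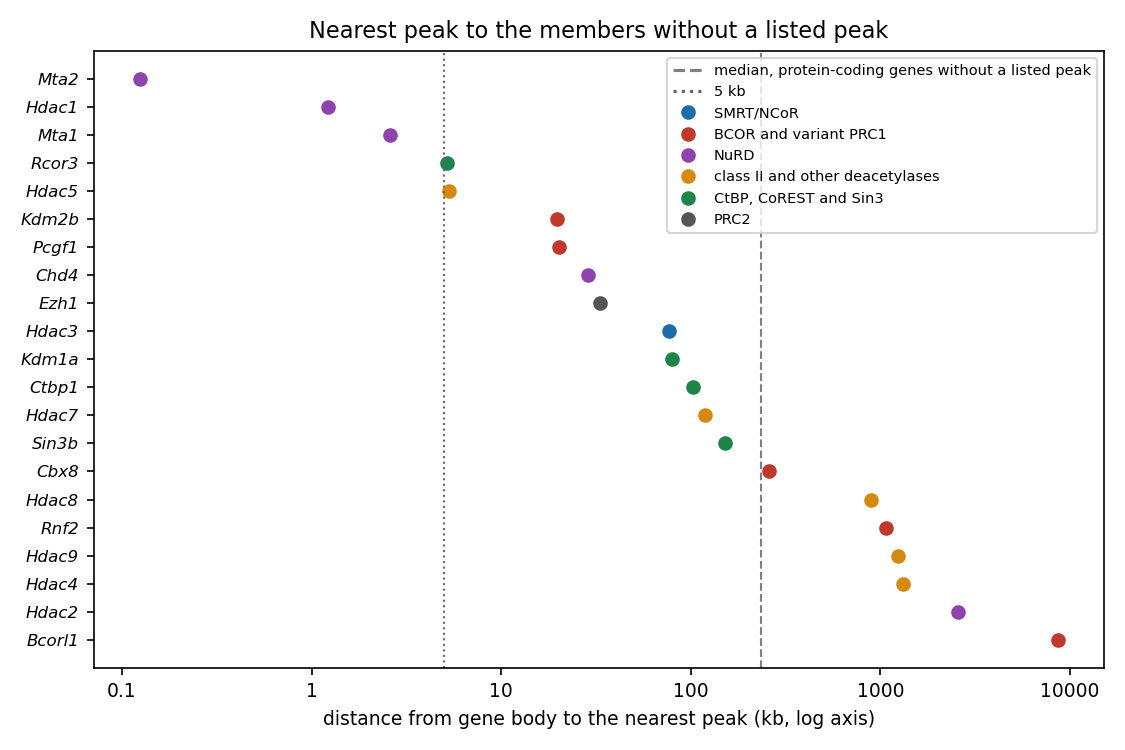
Distance (kb, log axis) from the gene body to the nearest peak for the 21 members without a listed peak, in ascending order and coloured by complex. Mta2, Hdac1 and Mta1 lie left of the dotted 5 kb line and 5 genes lie beyond 1000 kb; the dashed line is the median of all protein-coding genes without a listed peak, 234 kb.

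Other subunits of the same complexes, 61 genes outside the 35, had a listed peak in 28 cases (45.9%, exact 95% interval 33.1 to 59.2%), beside the same 20.1% of protein-coding genes. A promoter peak, centred at most 1 kb from the listed TSS, was found for 17 of the 61 (27.9%), beside 10.8% of protein-coding genes. Their 43 peaks had a median fold of 21.3, from 11.5 to 70.9. The highest was that of Aebp2, a PRC2 cofactor, with 70.9-fold 20.1 kb upstream. The next were Ing1, a Sin3 subunit that reads histone tails, with 34.4-fold 225 bp from its TSS, and Yaf2, a variant PRC1 subunit, with 33.5-fold 139 bp upstream. Jarid2, another PRC2 cofactor, had 33.1-fold 25.7 kb upstream and a second peak of 27.3-fold 523 bp upstream.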

How the data were processed

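Bcl6 ChIP and input DNA libraries, 3 of each, were pooled by the authors before peak calling. Reads were aligned to mm10 with Bowtie, per the submitters' processing notes, with no version stated there. Per the file headers, MACS 1.4.2 was the peak caller, run at a p-value cutoff of 1e-05 with at most 1 tag per position, which kept 20.6% of ChIP and 39.4% of input tags. The deposited values per peak are the count of ChIP tags, the fold enrichment (a ratio over the local input background), the score (the p-value on a log10 scale times −10) and an FDR in percent. The score column has lost its name in the deposited table and was recognised by its place and by its minimum. The deposited gene list is output of GREAT 3.0.0, per the file headers: a gene's basal domain reaches 5000 bp upstream and 1000 bp downstream of its TSS and is extended by at most 1000000 bp.

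Peaks were tied to genes by peak number, taken as the order of the peak table. Where strand was known (4302 pairs), the TSS implied by the peak centre and the listed distance lay a median of 5 bp from a RefSeq TSS of the gene, and within 1 kb for 95.3%. Peak counts over all genes used protein-coding genes of GRCm38.p6, with older symbols matched where unique. All 35 members matched by current symbol. All peaks of every member are given. Of the other subunits, the 5 genes with the highest fold were to be named; 1 of the 5 is not reported here and was left out of their counts. Exons and introns were not distinguished. No test was run, since 1 pooled peak set has no replicates. Counts and medians are set beside those of all genes or peaks. The motif search and the interval of the median were tested on simulated data. The members and lists were chosen with earlier results of these data known. Computations used Python 3.11.15, pandas 2.3.3 and scipy 1.17.1.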

Additional observations from a re-analysis of the deposited data

How the results depend on the processing

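No paired analysis was possible because the libraries were pooled before peak calling, and for the same reason no replicate could be left out. Of 42 recomputed values, 33 stayed within 1.5 times the main count or inside the 95% interval of the main median or share. With only peaks at or above the median score, 4 members had a peak within 1 kb of a TSS, in place of 7, and 16 of the other subunits had a listed peak, in place of 28. Without peaks over 2 kb wide, 3 members had a peak within 1 kb of a TSS. With only peaks within 5 kb of the listed TSS, 9 members and 10 member peaks were left. Taking peaks over the gene body or within 5 kb of it, the median fold of member peaks was 19.4, since the peaks of Hdac6, Bcor and Rcor1, the distal Mta3 peak and the upstream Rcor2 peak leave, and peaks near Mta1, Mta2, Hdac1, Gps2 and Sin3a enter. With 3 kb as the width limit, 10.0% of member peaks were wide, in place of 30.0%. Without peaks listed for more than 1 gene, an alternative chosen after seeing the data, 6 members and 7 peaks were left. The share of all protein-coding genes was not recomputed for any of these changed gene counts. Whether the members' share stays above it under these settings was not tested. With an FDR of at most 5% no count changed. Depth limits the smallest peaks most: 38 tags for Tbl1x allow 26.9 to 52.2.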

Other observations

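The Sirt1 peak was not the only one whose listed distance differed from RefSeq. Of 2035 pairs of a peak and a gene listed over 5 kb apart and with a RefSeq TSS, 81 (3.98%) had the peak centre within 1 kb of a RefSeq TSS of that gene. Among the 20 member pairs, the listed TSS was over 1 kb from every RefSeq TSS for Bcor (79.8 kb), Sirt1 (42.7 kb) and the 4 peaks of Rcor2 (2370 bp). The longest extent of Ctbp2 in the gene table has no entry at its 5′ end in the promoter table, so its peak there is not among the 81.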
